A study of Mus musculus with 2 samples.

Results

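The genes described here are 34 genes that mark microglia and brain macrophages, read in the striatum of WT mice and of mice that lack connexin 30 (Cx30 KO mice) on day 1 after MPTP. Cx30, encoded by Gjb6, is a gap junction protein of astrocytes, and MPTP is a neurotoxin that damages dopaminergic neurons. The genes were taken from a given list of symbols, and each of the 34 matched at least 1 of the 37074 gene names on the array. This list and the other gene lists below were chosen with earlier results of these data known. Their shares of calls are therefore descriptions and not independent tests. They were represented by 68 probes, all 60-mer oligonucleotides, and 12 of the genes had a single probe.

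One single-colour Agilent array was hybridised for each genotype, with striatal RNA pooled from 2 male mice per array. According to the methods the mice were 8 weeks old and received 4 injections of 20 mg/kg MPTP at intervals of 2 h, so that both groups carried the toxin and no saline-treated animals entered the comparison. The strain label is C57BL/6J on the WT array and Cx30-LacZ on the other, a line whose Gjb6 gene is disrupted in all cells and not in astrocytes alone. The methods describe WT controls bred from the same heterozygous crosses as the Cx30 KO mice, which the strain labels do not show. With 1 array for each genotype, genotype, strain and pool cannot be told apart, there are no replicates, and no difference below was tested.

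Microglia are the resident macrophages of the brain. They derive from yolk sac precursors, depend on signalling through the receptor CSF1R, and carry in the healthy brain a set of surface proteins called homeostatic, with which they sense nucleotides, lipids and neurons. When neurons are injured they enlarge, take up debris through phagocytic receptors such as TREM2 and the Fc receptors, which signal through the adaptors TYROBP and FCER1G, and can lose part of the homeostatic set. A separate population of macrophages lies along vessels and in the meninges and carries the scavenger receptors MRC1 and CD163.

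Each value below is the processed signal of a gene's brightest detected probe, in arbitrary units. A gene was detected when its probe was well above background on at least 1 array, as the scanning software marks it. Differences are log2 ratios of Cx30 KO over WT after each array was scaled to its 75th percentile, and a gene was called lower at a ratio of 0.66 or less and higher at a ratio of 1.5 or more, the ratio limits of the study. The software's own error of a member's signal had a median of about 10% and reached 41.9% in the dimmest signal. Where a gene was read by more than 1 probe, its log2 ratios spread with an SD of 0.26 between probes, over 7147 genes.

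The 75th percentile was 401 in WT mice and 382 in Cx30 KO mice, and 56.6% and 58.2% of the 56605 probes were well above background. The array labelled Cx30 KO had a Gjb6 signal of 111 against 1788 on the WT array, which is 15.4-fold lower. Over the 22012 genes detected on at least 1 array the median log2 ratio was 0.03. The 9 markers of striatal neurons were all detected and none was called. All 6 markers of cortical neurons were higher in Cx30 KO mice, and their summed signal was 232 in WT mice and 1528 in Cx30 KO mice.

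Microglia and macrophage genes were mostly lower on the Cx30 KO array. Of the 34 genes, 33 were detected, 30 of them on both arrays and 3 on the WT array alone. Of these 33 genes, 13 (39.4%) fell past the ratio limit, against a background of 5.63% of all detected genes, and none rose, against a background of 5.61%. The 13 genes were Aif1, Tmem119, Fcrls, Selplg, Cd53, Fcer1g, Fcgr2b, Cd52, Lpcat2, Ly86, Hpgds, Bin2 and Mrc1. Cd53, Hpgds and Mrc1 were detected on the WT array alone, so the detection filter admitted them only through the array where they were high and they could not be called higher. Of the 30 genes detected on both arrays, 10 (33.3%) fell, against a background of 4.25% of all genes so detected, and none rose, against 3.97%. The other 20 detected genes stayed within the limits. The median log2 ratio of the 33 genes was −0.39, with quartiles of −0.95 and −0.25. It was also −0.39 with the genes seen on the WT array alone set at their bound. That setting could not move the median, because the bounds of all these genes still lay below it. The log2 ratio was below 0 in 27 genes and above 0 in 6 genes, against 45.4% of all detected genes below 0. Of the 30 genes detected on both arrays 24 were below 0, with a median of −0.37. In bulk tissue, fewer microglia and less RNA per microglial cell cannot be told apart. The arrays also differed in markers of cortical neurons, oligodendrocytes and erythroid cells. The part of tissue content in the values above was not tested.

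**Figure D1:**
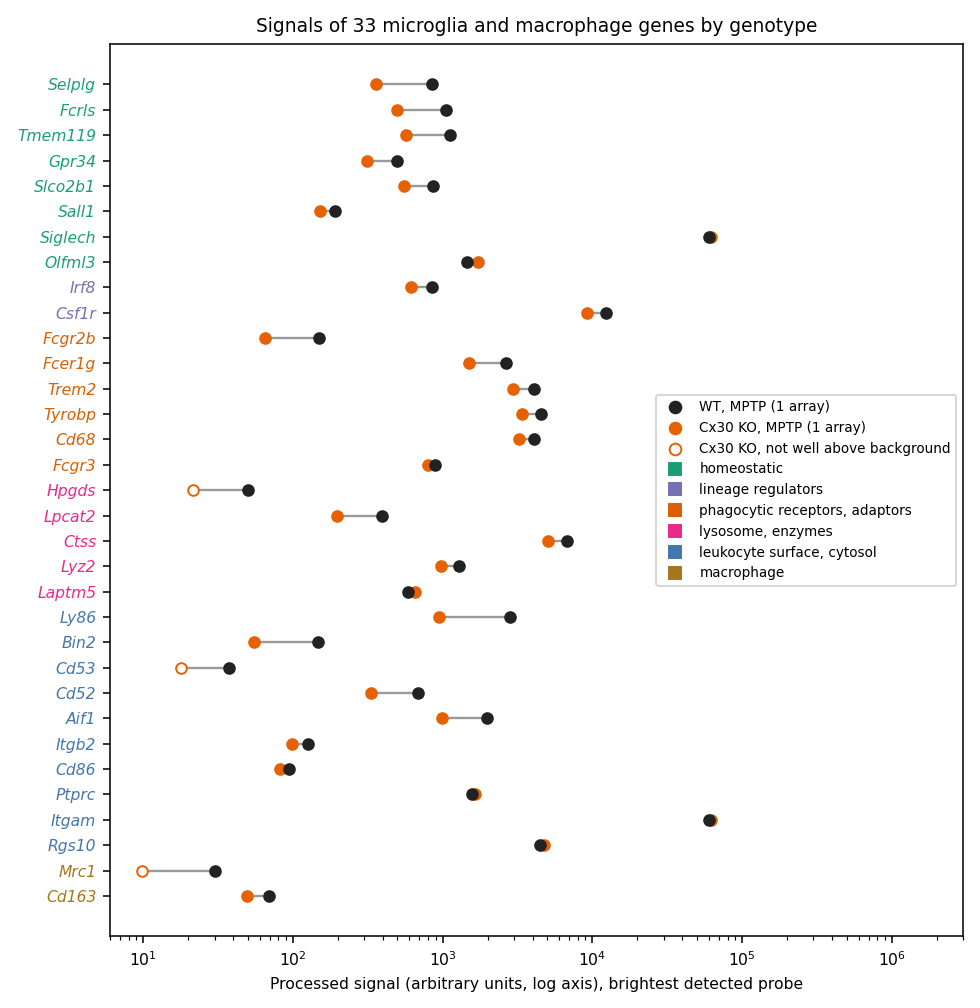
Processed signal (log axis) of each of the 33 detected microglia and macrophage genes on the WT array (black) and the Cx30 KO array (orange), 1 array each, with gene names coloured by role. Most orange points lie to the left of the black ones, and open points mark Cd53, Hpgds and Mrc1, which were not well above background in Cx30 KO mice.

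The homeostatic group held 8 genes, of which 3 fell, against 5.63% of all detected genes, and 5 stayed within the limits. The median log2 ratio of the group was −0.59. Selplg, the surface ligand of P-selectin, had signals of 853 ± 85.4 in WT mice and 361 ± 36.3 in Cx30 KO mice, where ± is the software's error, and was 2.25-fold lower. Fcrls, an Fc receptor-like protein used to tell microglia from blood monocytes, had signals of 1049 ± 105 and 497 ± 49.9 and was 2.01-fold lower. Tmem119, a membrane protein that among brain cells marks microglia, had signals of 1114 ± 112 and 569 ± 57.1 and was 1.86-fold lower. In each of these 3 genes the signals of the arrays were further apart than both errors together.

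Gpr34, a receptor for lysophosphatidylserine, had signals of 498 ± 50.02 and 314 ± 31.7, and its ratio of 0.663 lay just outside the limit. Slco2b1, an organic anion transporter, was as close to it, with signals of 869 ± 87.0 and 549 ± 55.1 and a ratio of 0.664. A second probe of Gpr34 gave 111 and 64.4, a log2 ratio of −0.71, and would have passed, whereas the second probe of Slco2b1, which lies on the opposite strand, gave 77.8 and 59.2, a log2 ratio of −0.32. Both genes thus sat at the edge. The call on Gpr34 turns on the choice of probe or scale, and that on Slco2b1 on the scale, since none of its probes passed.

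Sall1, a transcription factor of microglial identity, had signals of 190 ± 19.5 and 152 ± 15.8, a log2 ratio of −0.25 that is no larger than the SD between probes. Olfml3, a secreted glycoprotein, had signals of 1452 ± 145 and 1727 ± 173 at its brightest probe, a log2 ratio of 0.32. Its 2 other probes went the other way. At one of them, chr3:103537878-103537937 of the mm9 build on the minus strand, the signal was 131 in WT mice and 16.1, not well above background, in Cx30 KO mice, and at the other it was 62.4 and 44.6. The direction of Olfml3 was therefore not settled by its probes.

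The regulators of the lineage were lower by less than the limit. Csf1r, the receptor for CSF1 and IL-34 on which microglia depend for survival, had signals of 12320 ± 1232 and 9170 ± 917, a log2 ratio of −0.35. Its second probe gave 516 and 527, a log2 ratio of 0.10. Irf8, a transcription factor needed for microglial development, had signals of 853 ± 85.4 and 620 ± 62.1, a log2 ratio of −0.39, and its second probe gave 105 and 82.6, a log2 ratio of −0.28. None of the regulator genes was called.

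Among the phagocytic receptors and their adaptors all 6 genes had a log2 ratio below 0, with a median of −0.37. Of these 6 genes 2 fell, against 5.63% of all detected genes. Fcgr2b, the inhibitory Fc receptor for IgG, had signals of 150 ± 15.6 and 65.2 ± 7.60 and was 2.19-fold lower, and its second probe gave 43.1 and 14.4, the latter not well above background, which is at least 2.36-fold lower. Fcer1g, the common γ chain through which activating Fc receptors signal, had signals of 2667 ± 267 and 1508 ± 151 and was 1.68-fold lower. The other activating genes moved less. Fcgr3, an activating Fc receptor for IgG that relies on this chain, had signals of 888 ± 88.9 and 802 ± 80.4, a log2 ratio of −0.07, with −0.11 at its second probe.

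Trem2, a lipid receptor of phagocytosis, had signals of 4068 ± 407 and 2970 ± 297, a log2 ratio of −0.38. Tyrobp, the adaptor of TREM2, had signals of 4555 ± 456 and 3388 ± 339, a log2 ratio of −0.36. Cd68, a lysosomal glycoprotein of phagocytes, had signals of 4068 ± 407 and 3219 ± 322, a log2 ratio of −0.27. The receptor and its adaptor had nearly the same ratio, and the 3 probes of Cd68 gave log2 ratios between −0.42 and −0.27, all below 0 and none called.

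Of the 6 genes for lysosomal proteins and enzymes, 5 were detected and 2 fell, against 5.63% of all detected genes. Lpcat2, an enzyme that makes platelet-activating factor, had signals of 392 ± 39.4 and 198 ± 20.2 and was 1.88-fold lower, and its second detected probe had a log2 ratio of −0.72. Hpgds, the haematopoietic prostaglandin D synthase, was detected on the WT array alone, with signals of 50.1 ± 7.15 and 21.5 ± 5.01, and was 2.22-fold lower. In these results "at least" sets the WT signal against the higher of the gene's own signal and the lowest signal well above background on the other array. Where the gene's own signal was the higher, as in Hpgds, the fold is the measured ratio and is given without "at least". Neither kind of value allows for the errors. A second Hpgds probe gave 43.8 and 18.3, the latter again not well above background, and was 2.28-fold lower.

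Ctss, the lysosomal protease cathepsin S, had signals of 6797 ± 680 and 5060 ± 506, a log2 ratio of −0.35. Lyz2, the lysozyme of macrophages, had signals of 1282 ± 128 and 982 ± 98.4, a log2 ratio of −0.31. Laptm5, a lysosomal membrane protein of leukocytes, went the other way with signals of 591 ± 59.2 and 655 ± 65.6, a log2 ratio of 0.22 that lay within the SD between probes. Cybb, the catalytic subunit of the phagocyte NADPH oxidase, was not well above background at either of its probes, whose signals were 4.58 and 4.53 in WT mice and 4.11 and 4.01 in Cx30 KO mice, so it has no ratio here.

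Of the 10 genes for surface and cytosolic proteins shared with other leukocytes, 5 fell, against 5.63% of all detected genes. This group held the deepest fall measured on both arrays. Ly86, also called MD-1, the secreted partner of the Toll-like receptor homologue CD180, had signals of 2831 ± 283 and 947 ± 94.7 and was 2.85-fold lower. It was read by a single probe at chr13:37510701-37510760 (mm9, plus strand), and its Z-score against the 1000 probes of nearest signal was −5.22. Bin2, a BAR domain protein of leukocytes, had signals of 148 ± 15.4 and 55.0 ± 6.68 and was 2.57-fold lower. Its second probe gave 81.1 and 18.7, the latter not well above background, and was 4.13-fold lower as measured. The log2 ratios of the brightest probes of both genes, −1.51 and −1.36, were larger in size than the SD of 0.26 between probes.

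Cd52, a short glycoprotein of the leukocyte surface, had signals of 681 ± 68.2 and 335 ± 33.7 and was 1.94-fold lower. Aif1, which encodes the calcium-binding protein IBA1 used to stain microglia, had signals of 1991 ± 199 and 998 ± 99.9 and was 1.90-fold lower. Cd53, a tetraspanin of leukocytes, was near background with signals of 37.5 ± 5.95 and 18.03 ± 4.48, the second not well above background. As measured it was 1.98-fold lower, which is not a minimum. Its errors make it the least certain of the 5 calls in this group.

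The remaining genes of the group were not called. Itgb2, the β2 integrin chain, had signals of 126 ± 13.3 and 98.4 ± 10.5, a log2 ratio of −0.29. Cd86, a costimulatory ligand for T cells, had signals of 94.8 ± 10.5 and 82.4 ± 9.18, a log2 ratio of −0.13, with −0.36 at a second probe. A further Cd86 probe gave 28.2 and 16.03, the latter not well above background, and was at least 1.55-fold lower. Rgs10, a regulator of G-protein signalling, had signals of 4491 ± 449 and 4769 ± 477, a log2 ratio of 0.16, with −0.03 at its second detected probe.

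Ptprc, the leukocyte common antigen CD45, had 7 probes of which 4 were detected, and they did not go one way. The brightest gave 1585 ± 159 and 1635 ± 164, a log2 ratio of 0.12. Of the other detected probes, those well above background on both arrays gave 74.1 and 48.5, a log2 ratio of −0.54, and 22.8 and 20.3, a log2 ratio of −0.10. The remaining one gave 39.7 and 21.1, the latter not well above background, and was 1.79-fold lower as measured. The signal of the brightest probe is thus the one that sets Ptprc above 0.

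Macrophage genes were dim on both arrays. Mrc1, the mannose receptor CD206, had signals of 30.2 ± 5.43 in WT mice and 9.80 ± 4.10, not well above background, in Cx30 KO mice, and was at least 1.65-fold lower. Cd163, the scavenger receptor for haemoglobin bound to haptoglobin, had signals of 69.2 ± 8.50 and 49.5 ± 6.59, a log2 ratio of −0.41, and was not called. Of 12 other genes of border macrophages, 8 were detected and 5 fell, against 5.63% of all detected genes. The median of the 8 log2 ratios was −0.68. The 5 were Pf4, a platelet and macrophage chemokine, at least 3.49-fold lower with signals of 63.7 and 17.0, Cbr2, Ms4a7, F13a1 and Ccl24, with log2 ratios of −0.96, −0.92, −0.72 and −0.64. Pf4 was detected on the WT array alone and could not be called higher. Lyve1, a hyaluronan receptor, went the other way, not well above background in WT mice at 7.85 and at 24.3 in Cx30 KO mice. Cp, which the study counts among pan-reactive astrocyte genes, also had a log2 ratio above 0, at 0.42 with signals of 291 and 371. Its signal in bulk tissue need not come from macrophages. Stab1 had a log2 ratio of −0.16 with signals of 547 and 466. Lyve1, Cp and Stab1 were not called. The WT signals of F13a1, Ms4a7 and Ccl24 were 51.5, 40.1 and 29.8, close to background.

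The comparison of the 3 functional sets was limited by their size. The homeostatic genes Tmem119, Siglech and Gpr34 had a median log2 ratio of −0.59 and a range from −0.90 to 0.13, with 1 gene called lower. The upper end is the repeat probe of Siglech described further on, whose other probes gave log2 ratios of 0.42 and −0.48. The phagocytic genes Cd68, Trem2 and Fcgr3 had a median of −0.27 and a range from −0.38 to −0.07, with none called. The range of the phagocytic genes lay inside that of the homeostatic genes. The macrophage genes Mrc1 and Cd163 had a median of −0.98, or −0.57 with Mrc1 at its bound, from 1 gene near background and 1 gene that was not called. With 2 or 3 genes in a set and 1 array a genotype, no order among the sets was tested.

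**Figure D2:**
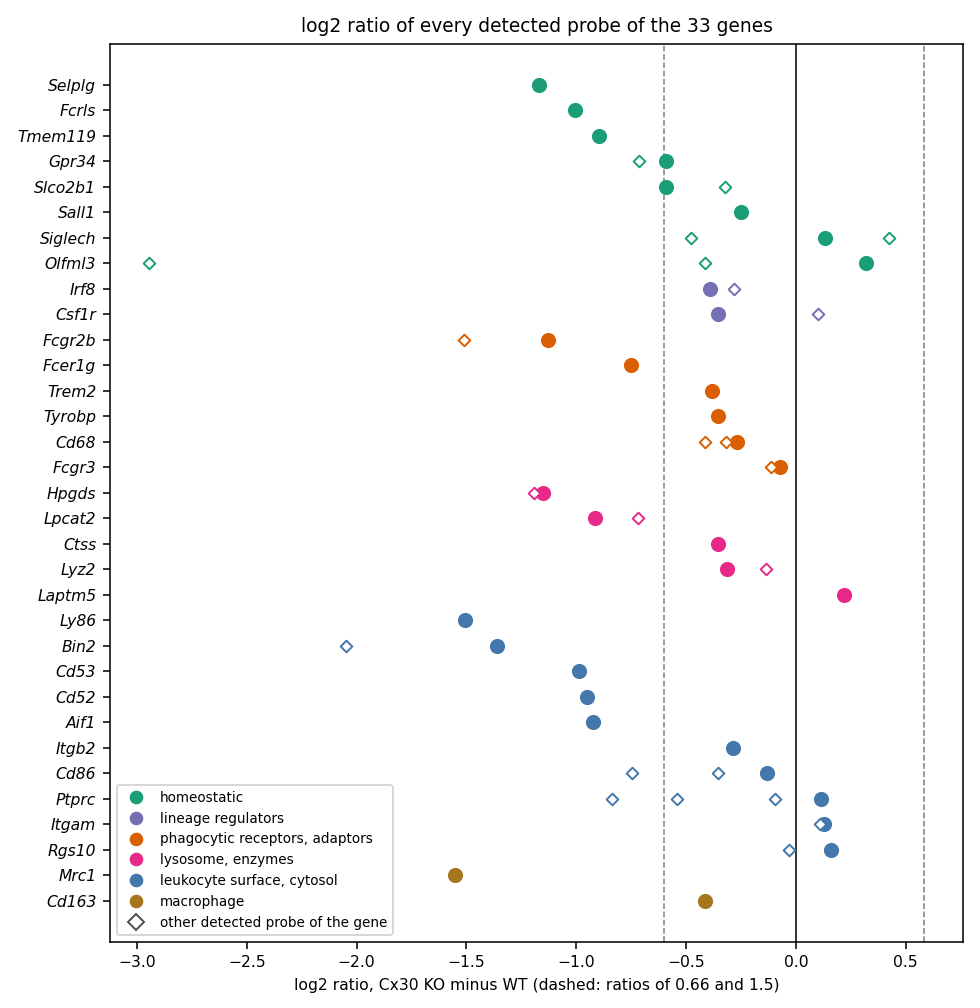
log2 ratio (Cx30 KO over WT) of every detected probe of the 33 genes, with a filled circle for the brightest probe and open diamonds for other probes of the gene, and dashed lines at ratios of 0.66 and 1.5. The 9 probes detected on the WT array alone and the 1 on the Cx30 KO array alone stand at their measured ratio. Filled circles of 13 genes lie left of the lower line and none lies right of the upper one, while the probes of Csf1r, Siglech, Olfml3, Ptprc and Rgs10 lie on both sides of 0.

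Taking each probe by itself, 46 probes of the listed genes were well above background on both arrays, of which 38 had a log2 ratio below 0 and 8 above 0, with a median of −0.36. A further 9 probes were detected on the WT array alone and 1 on the Cx30 KO array alone. Of the 13 genes with several probes well above background on both arrays, 8 had all of them below 0 and 5 had probes on both sides of 0. Probes of one gene read the same RNA and are not replicates of the genotype.

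The brightest probes of Itgam and Siglech hold simple repeats and had WT signals at ranks 195 and 197 of the 56605 probes. Itgam encodes the integrin chain CD11b, and Siglech encodes a sialic acid-binding lectin. The stretches below, read 5′ to 3′ as deposited, were chosen after their signals were seen and show the repeat in capitals beside a stretch of another probe of the same gene, which holds none. In Itgam the repeat fills bases 1 to 20 of the probe at chr7:135261755-135261814, and in Siglech it fills bases 39 to 60 of the probe at chr7:63034088-63034147 (mm9, plus strand).
Itgam, repeat probe, bases 1 to 30: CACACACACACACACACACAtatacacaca
Itgam, other probe, bases 1 to 30: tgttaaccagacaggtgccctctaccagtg
Siglech, repeat probe, bases 31 to 60: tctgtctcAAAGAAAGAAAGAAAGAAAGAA
Siglech, second probe, bases 31 to 60: ccctggtggattcctcccaacatttctgga

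The Itgam repeat probe had signals of 60045 ± 6005 in WT mice and 62438 ± 6244 in Cx30 KO mice, a log2 ratio of 0.13. The other Itgam probe had 21.6, not well above background, and 22.2. The Siglech repeat probe had signals of 59850 ± 5985 and 62401 ± 6240, also a log2 ratio of 0.13. Its second probe gave 1746 and 2227, a log2 ratio of 0.42, and its last probe gave 147 and 100.7, a log2 ratio of −0.48. So the repeat probes of both genes gave nearly the same signals on both arrays, and the other probes of Siglech disagreed in sign.

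Probes that hold a run of 16 or more bases of a unit of 1 to 4 bases were few on the array, 267 of the 56605, and bright as a class. Their median WT signal was 2026 against 40.9 for the other 56338 probes, and 25.5% of them exceeded 10000 against 2.94%. The 42 probes with the CA repeat of the Itgam probe had median signals of 29356 in WT mice and 31582 in Cx30 KO mice. The 5 probes with the repeat of the Siglech probe had a median WT signal of 602, and 1 of them exceeded 10000. What the Itgam and Siglech repeat probes bind was not tested. Without probes of this kind the count of genes called lower was 13 of 33 and the median −0.39. Neither could move, because only Itgam and Siglech changed probe, and both stayed above 0 and uncalled at log2 ratios of 0.11 and 0.42. The summed signal of the 33 genes changed from 176687 in WT mice and 166665 in Cx30 KO mice to 58560 and 44075.

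**Figure D3:**
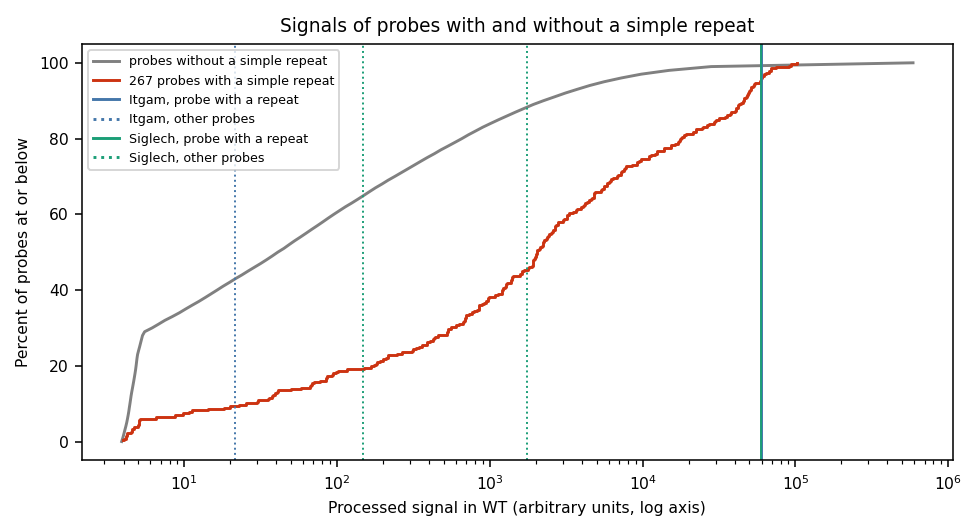
Percent of probes at or below each WT signal (log axis) for the 267 probes with a simple repeat (red) and all other probes (grey), with vertical lines at the probes of Itgam and Siglech. The repeat probes of both genes coincide at 60045 and 59850, far to the right of the dotted lines of their other probes.

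Dim genes pass a ratio limit more easily than bright ones, so all detected genes were split into 3 equal groups by mean signal over both arrays. In the dimmest group 5 of 8 microglia and macrophage genes fell, against 11.02% of all genes there. Of those 5, Cd53, Hpgds and Mrc1 were detected on the WT array alone and could only be called lower, and among genes of this group detected on both arrays 2 of 5 members fell, Fcgr2b and Bin2, against 7.65% of all genes. The middle group held 11 genes of the list, of which 5 fell against 3.90%, and the brightest group held 14, of which 3 fell against 1.98%. The 3 bright genes that fell were Aif1, Fcer1g and Ly86. The median log2 ratio of the genes of the list detected on both arrays was −0.41, −0.59 and −0.33 in the dimmest, middle and brightest group, while that of all such genes was 0.04, 0.01 and 0.02.

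**Figure D4:**
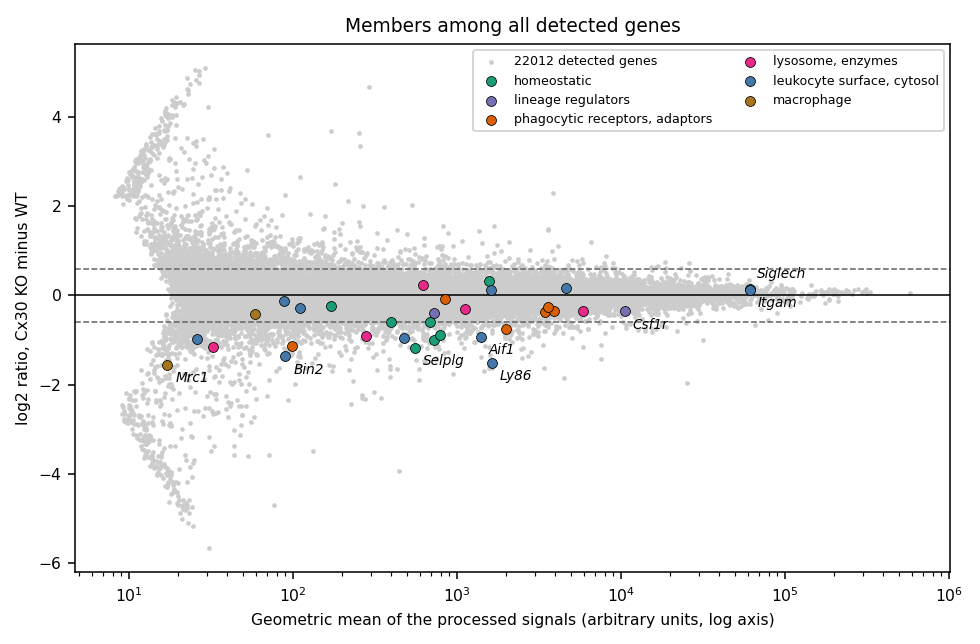
log2 ratio (Cx30 KO over WT) against the geometric mean of the signals on both arrays (log axis) for all 22012 detected genes (grey) and the 33 microglia and macrophage genes (coloured by role), with dashed lines at ratios of 0.66 and 1.5. Ly86 lies at the lower edge of the grey cloud, Mrc1 lies where the cloud is widest, and Siglech and Itgam overlap at the right just above 0.

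Stricter rules left fewer calls. With the study's added limit of a Z-score of 2 in size, 10 of the 33 genes (30.3%) were lower, against a background of 2.8%, and none was higher, against 1.88%. The 3 genes that this rule dropped were Cd53, Hpgds and Mrc1, the genes seen on the WT array alone. The same 3 genes lay within the ratio limits after normexp background correction, which compresses dim signals, with log2 ratios of −0.25, −0.38 and −0.34. With ratio limits of 0.5 and 2, 6 genes (18.2%) were lower, against 1.95%, and none was higher, against 1.71%.

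Other microglia genes, also chosen with earlier results of these data known, were read beside the list. All 25 were detected on both arrays and 23 had a log2 ratio below 0, against 45.4% of all detected genes, with a median of −0.37. Of the 25, 6 fell, against the 5.63% of all detected genes, and 19 stayed within the limits. The ADP receptor P2ry12 had signals of 145 and 42.8, and its relative P2ry13 had signals of 205 and 96.2, 2.03-fold lower. Slc2a5, a fructose transporter, was 1.86-fold lower with signals of 190 and 96.8, and Unc93b1, the chaperone of endosomal Toll-like receptors, was 1.67-fold lower with signals of 523 and 299. The fractalkine receptor Cx3cr1 and the transcription factor Runx1 were 1.59-fold and 1.53-fold lower. Of the 15 genes around CSF1R and TREM2 signalling 13 were detected, 11 were below 0, and 1 was called, Pik3cg, a phosphoinositide 3-kinase subunit that was detected on the WT array alone and at least 2.06-fold lower, a share of calls near the background of 5.63%. The CSF1R ligands differed by less than the limits, Csf1 with signals of 644 and 562 and Il34 with signals of 3583 and 4111.

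Markers of other cells moved too, and their part in the values above was not tested. Of all detected genes, 5.63% were called lower and 5.61% higher. The 4 detected of 6 erythroid genes fell, the α-globin genes Hba-a1 and Hba-a2 with signals of 2976 and 915 and of 2841 and 872, and the β-globin genes Hbb-b1 and Hbb-b2 seen on the WT array alone, and their summed signal was 5985 in WT mice and 1812 in Cx30 KO mice. The probes of near-identical globin genes can share RNA, so the 4 are not independent. Of 14 neutrophil and monocyte genes 7 were detected, 3 with a log2 ratio below 0 and 4 above, and none was called lower. S100a8 and S100a9, which neutrophils carry, rose, S100a8 by at least 2.26-fold and S100a9 with signals of 69.4 and 122, while the neutrophil genes Ly6g and Camp had log2 ratios of −0.09 and −0.23. Of 10 lymphocyte genes 4 were detected and none was called. Oligodendrocyte genes were below 0 in 7 of 7, of which 5 fell, with a summed signal of 157109 in WT mice and 93330 in Cx30 KO mice. Their median of −0.73 was lower than the −0.39 of the microglia and macrophage genes. The 8 astrocyte markers had a median of 0.02 with 1 gene lower, and the 8 endothelial markers a median of −0.17 with 1 gene lower.

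**Figure D5:**
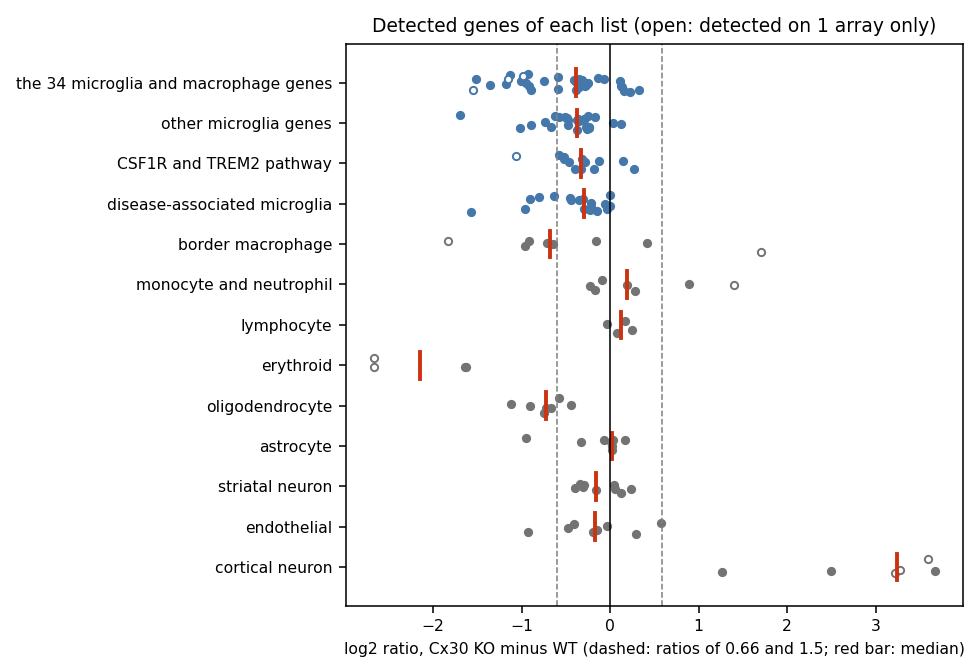
log2 ratio (Cx30 KO over WT) of the detected genes of each list, with a red bar at the median, open points for genes detected on 1 array only, and dashed lines at ratios of 0.66 and 1.5. The 4 lists of microglia genes and their signalling (blue) have medians between −0.39 and −0.30, erythroid and oligodendrocyte genes lie lower, and cortical neuron genes lie far to the right.

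PU.1 is the transcription factor that directs much of the microglial programme, and it binds the letters GAGGAAGT within longer sites. These letters were searched on both strands of promoter windows of 300 bases, 250 before and 50 after each gene's start, taken from RefSeq on the GRCm38.p6 build. A window was at hand for 25 of the 34 genes, and 4 of the 25 (16%) held the letters, against 3.69% of 27025 genes with a window and 3.46% of the 13078 of these that were detected. The stretches below show the 4 matches with the letters, or their reverse complement, in capitals, and each is written on the strand of its gene.
Ctss, chr3:95526773-95526802, plus strand: aatgaaagttcACTTCCTCattgtggatgc
Cd53, chr3:106790125-106790154, minus strand: cactcagtctcACTTCCTCactcttctcgc
Hpgds, chr6:65144761-65144790, minus strand: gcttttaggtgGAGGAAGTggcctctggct
Slco2b1, chr7:99711316-99711345, minus strand: agtccatgaggGAGGAAGTgactcatcttc

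Cd53 and Hpgds were among the 13 genes that fell, Slco2b1 lay just outside the limit, and Ctss had a log2 ratio of −0.35. A match is a description of the letters and not a binding site, and binding was not measured. The gene of PU.1, Spi1, was not detected on either array.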

How the data were processed

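Striatal RNA pooled from 2 mice was hybridised to 1 array for each genotype. The authors extracted spot signals with Agilent Feature Extraction, version 10.7.1.1 in the file header and 9.5.1.1 in the submitters' processing notes. The deposited processed signals are linear intensities, background-subtracted and detrended within each array by that software and not scaled between arrays. A deposited value table matched the quantile-normalised intensities, with 99.991% of its values within 1%, and served as an alternative. Probe positions are those of the files (mm9). Gene symbols followed the files, with 2038 updated by accession through the RefSeq table of GRCm38.p6.

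Control spots were left out and the spots of each probe averaged. The intensity of each probe was divided by the array's 75th percentile and taken to log2. A gene was read from its brightest probe well above background on either array. The lowest such signal was 19.8 in WT mice and 17.4 in Cx30 KO mice, and no probe was saturated. Spots of one probe differed by a median SD of 2.72% and 2.83% over 298 probes with repeated spots, while precision is limited by having 1 array a genotype. A gene detected on 1 array was called from its bound. The Z-score used the mean and SD of the log2 ratios of the 1000 probes nearest in signal.

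All 34 listed genes are named, and of other lists the genes past the ratio limits or, for cell types other than microglia and macrophages, at most 3 detected on both arrays. Outside this rule, Csf1, Il34, Spi1, Lyve1, Cp, Stab1, S100a8, Ly6g, Camp, Hbb-b1, Hbb-b2, Apoe, Itgax and Igf1 were named after their values were seen. The members and lists were chosen with earlier results of these data known. The calculations were tested on simulated data with less noise than the spread between probes here. That test gives no rate of false calls for these data. Python 3.11.15, numpy 2.4.6, pandas 2.3.3, matplotlib 3.10.9, R 4.3.3 and limma 3.58.1 (normexp) were used. Alternatives were quantile normalisation, median scaling, normexp, the deposited table, other filters on dim probes, the mean of a gene's probes, other call rules and, added after the data were seen, leaving out probes with a simple repeat.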

Additional observations from a re-analysis of the deposited data

How the results depend on the processing

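The count of 13 microglia and macrophage genes called lower ranged from 10 to 15 under the other scalings, background corrections, filters and probe rules, with none called higher under any of them, while the share of all genes called lower ran from 2.57% with normexp to 7.18% with no filter on dim probes, and it was 6 with ratio limits of 2 and 0.5 and 3 with a Z-score over all probes in place of the 1000 nearest, where 1.74% of all genes were called lower. The median log2 ratio of all detected members was −0.44 with scaling by the array median, under which the median of all genes was −0.02. The median of Mrc1 and Cd163 was −0.25 with normexp and quantile normalisation, and −0.41 from Cd163 alone when detection on both arrays was required. Of 261 log2 ratios of single members under the alternatives none changed sign among called genes and 10 moved by more than the SD between probes, among them Olfml3 at −1.01 and Ptprc at −0.34 when a gene's probes were averaged. Many of the 261 could hardly move. The filters on dim probes left the ratios of the members they kept unchanged, and median scaling shifts all genes alike. The deposited table nearly repeats quantile normalisation, and leaving out repeat probes changed only Itgam and Siglech. The 10 moves came from normexp, the mean of a gene's probes and, for Siglech, leaving out repeat probes. Calls on Gpr34 and Slco2b1 depend on the scaling. No paired analysis was possible because each genotype has 1 array, and leaving out a replicate was not possible either. Dim genes such as Mrc1, Cd53 and Hpgds are limited by signal over background.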

Other observations

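Genes that microglia raise around plaques and dying neurons, known as disease-associated microglia genes, were read in the same way. Of 19 such genes 18 were detected, all on both arrays, of which 5 fell, against 5.63% of all detected genes, none rose, against 5.61%, and 13 were not called. The median log2 ratio of the 18 was −0.30. Cst7, an inhibitor of cathepsins, had signals of 195 in WT mice and 62.3 in Cx30 KO mice and was 2.98-fold lower. Clec7a, a receptor for β-glucans, had signals of 97.1 and 49.5 and was 1.87-fold lower. The tetraspanins Cd9 and Cd63 were 1.95-fold and 1.75-fold lower, and Lgals3, a galactose-binding lectin, was 1.55-fold lower. Cd9 and Cd63 are also expressed by other brain cells. Apoe, Itgax and Igf1 had log2 ratios between −0.03 and 0.00 and were not called.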
